A study of Mus musculus with 3 samples.

Results

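The insulin-like growth factor (IGF) genes described here are Igf1, its receptor Igf1r, 6 genes of the IGF-binding proteins (Igfbp2 to Igfbp7) and 2 genes of the IGF2 mRNA-binding proteins (Igf2bp2 and Igf2bp3). They were chosen by symbol from the deposited table of read counts, with earlier results of these data known. All 10 were present among the 20937 genes of that table. RNAseq was performed on the whole incisor enamel organ, the epithelium that forms enamel, of mice aged 4 weeks, with 1 library per genotype. The Stim1 cKO library (Stim1 fl/fl Cre+) came from mice in which the AmelX-iCre transgene, expressed in ameloblasts from the secretory stage on, deletes both floxed alleles of the calcium sensor gene Stim1. The Stim1 HT library (labelled Stim1 Het, Stim1 fl/wt Cre+) carried the same transgene and 1 floxed allele. The Stim1 Ctrl library (labelled Cre negative, Stim1 fl/fl Cre-) carried 2 floxed alleles and no Cre. All 3 libraries therefore share at least 1 floxed Stim1 allele, and no genotype was replicated.

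IGF1 and IGF2 are small secreted growth factors that act mainly through IGF1R, a receptor tyrosine kinase that signals through PI3K-AKT and RAS-ERK. Most extracellular IGF is held by IGF-binding proteins, which extend its lifetime, keep it from the receptor or release it when proteases cut them. IGFBP7 binds IGF only weakly and is mostly studied as a vascular matrix protein. The IGF2 mRNA-binding proteins, in spite of their name, are intracellular proteins that bind RNA and control the stability, localization and translation of many transcripts, those of Igf2 and H19 among them. They are most abundant in the embryo.

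Levels are TMM-scaled CPM, that is counts relative to a library size that edgeR corrected for composition. Where 3 values stand in a row, they belong to Stim1 cKO, Stim1 HT and Stim1 Ctrl in this order, and fold changes set Stim1 cKO against both controls as 1 group. Libraries held 20216507 to 28265960 counts, and the lowest count of the 10 genes was 429. Stim1 itself, on chromosome 7 from 102267806 to 102437319, was at 72.8, 129 and 186 CPM (log2 fold change -1.11, edgeR adjusted p 0.106). The Stim1 cKO library stood apart in genes of other tissues, with the retinal gene Gnat1 at 177, 0.102 and 0.194 CPM and 8 skeletal muscle genes at a summed 3594, 22734 and 29826 CPM.

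The 10 genes were lower in Stim1 cKO than in both controls in 9 cases, or 8 with RLE or library size scaling, which placed Igf1 between the controls. Igf1r was above both, by 1.03-fold over the nearer. In bulk RNA, fewer cells of a type and less RNA per cell cannot be told apart. Of all 18702 genes tested, 42.1% were below both controls and 43.6% above both. In 3 of the 10, Igfbp4, Igfbp6 and Igf2bp3, Stim1 cKO was over 2-fold below the nearer control, and in 0 it was over 2-fold above, against 8.23% and 19.1% of all genes. The median log2 fold change of the 10 genes was -0.74, while that of all genes tested was -0.01.

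**Figure D1:**
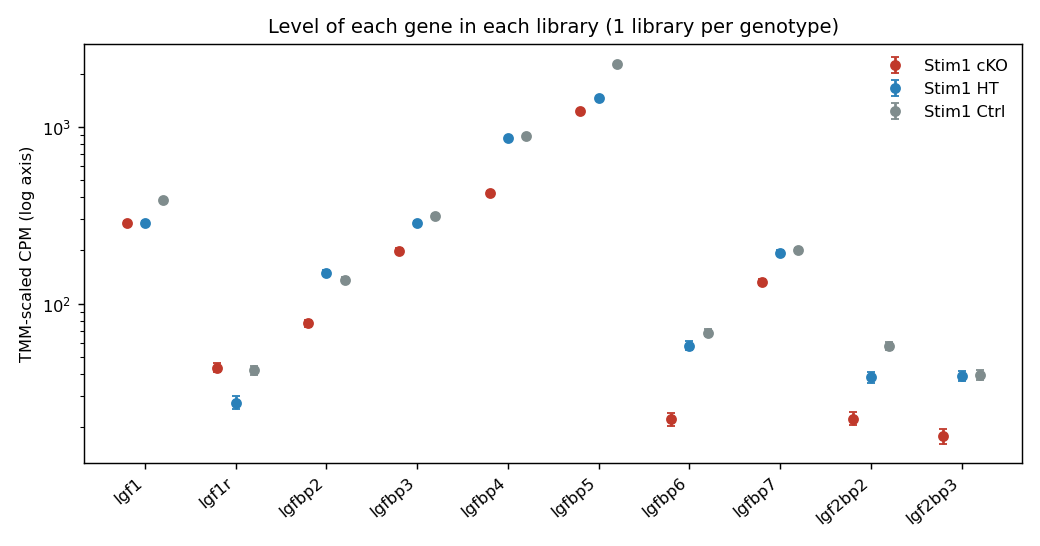
Level of each of the 10 genes in TMM-scaled CPM (log axis) in Stim1 cKO, Stim1 HT and Stim1 Ctrl, 1 point per library; the bars are exact 95% Poisson intervals and cover counting error only. Stim1 cKO is the lowest point for 9 genes, by a wide margin for Igfbp4, Igfbp6 and Igf2bp3 and by almost none for Igf1, and it is level with Stim1 Ctrl for Igf1r.

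The threshold for a call was a fold change over 2 together with an adjusted p under 0.01. By the quasi-likelihood test of edgeR, with p-values adjusted after Benjamini and Hochberg, 0 of the 10 genes passed, against 0.0749% of all genes in either direction and 0% as lower genes. At an adjusted p under 0.05 with the same fold minimum, 1 of the 10 passed, Igfbp6, where 9.68% of all genes passed in either direction and 2.88% as lower genes. Without adjustment, 5 of the 10 had a p under 0.05, namely Igfbp2, Igfbp4, Igfbp6, Igf2bp2 and Igf2bp3, each lower in Stim1 cKO, and by that criterion 13.4% of all genes were lower and 31.9% differed in either direction. DESeq2, the tool named by the study, called Igfbp4 and Igfbp6 as lower, 2 of 10, against 5.10% of all genes that had an adjusted p (11.5% in either direction). Both tools take their error from how far Stim1 HT and Stim1 Ctrl lie apart, and these libraries are of unlike genotype. Because the controls give little information per gene, both tools also draw each gene's error from the trend over all genes. An adjusted p here is thus not a measure against that gene's own gap between the controls alone.

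The promoters of the 3 genes that were over 2-fold below both controls are shown with that of Igf1r, the gene with the highest fold change. Each is the run of 250 bases before the RefSeq transcription start on GRCm38.p6, read 5′ to 3′ on the strand of the gene, from chr11:99040994-99041243 (plus strand) for Igfbp4, chr15:102143936-102144185 (plus strand) for Igfbp6, chr6:49214955-49215204 (minus strand) for Igf2bp3 and chr7:67952007-67952256 (plus strand) for Igf1r. Capitals mark every match on either strand to TATAAA (the TATA box), GGGCGG (the GC box) or GGAAAA (a core of NFAT sites).
Igfbp4: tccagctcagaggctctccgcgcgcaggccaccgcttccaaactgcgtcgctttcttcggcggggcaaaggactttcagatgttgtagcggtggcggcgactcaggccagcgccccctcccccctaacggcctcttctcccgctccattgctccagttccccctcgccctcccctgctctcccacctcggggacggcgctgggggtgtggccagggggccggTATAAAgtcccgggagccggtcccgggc
Igfbp6: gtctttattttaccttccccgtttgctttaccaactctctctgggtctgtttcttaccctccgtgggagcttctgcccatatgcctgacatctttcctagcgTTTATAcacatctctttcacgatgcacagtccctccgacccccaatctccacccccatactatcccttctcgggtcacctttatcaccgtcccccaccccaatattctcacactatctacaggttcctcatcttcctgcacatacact
Igf2bp3: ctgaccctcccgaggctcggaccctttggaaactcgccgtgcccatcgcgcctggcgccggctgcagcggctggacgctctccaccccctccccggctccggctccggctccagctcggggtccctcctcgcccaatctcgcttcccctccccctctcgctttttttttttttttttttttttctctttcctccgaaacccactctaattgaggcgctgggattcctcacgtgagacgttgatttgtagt
Igf1r: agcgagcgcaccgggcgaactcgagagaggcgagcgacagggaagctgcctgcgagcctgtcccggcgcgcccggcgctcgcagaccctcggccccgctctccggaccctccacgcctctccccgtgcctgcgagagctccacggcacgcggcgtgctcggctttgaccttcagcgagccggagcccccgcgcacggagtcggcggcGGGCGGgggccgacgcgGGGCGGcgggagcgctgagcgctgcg
Igfbp4 holds a TATAAA from 28 to 23 bases before its start, and Igfbp6 holds the same letters on the other strand, from 148 to 143 bases before its start. Igf1r holds 2 matches to GGGCGG and has a GC content of 77.6%, while Igf2bp3 holds none of the motifs searched. Of all 32851 promoter windows of this length, 12.4% hold TATAAA, 32.7% GGGCGG and 20.4% GGAAAA, and their median GC content is 52.4%. Of the 10 genes, Igf1r, Igfbp2, Igfbp7 and Igf2bp2 hold GGGCGG, and Igf1 alone holds GGAAAA. Distances count from the RefSeq start, which for Igfbp6 and Igf1r lies upstream of the gene start given below. These matches describe the letters, and binding of a factor was not measured.

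Igf1, the ligand, lies on chromosome 10 from 87858265 to 87937042 (GRCm38, GENCODE M21, as for all gene positions here). Its counts were 6914, 5662 and 9860, equal to 286, 287 and 383 CPM. Stim1 cKO and Stim1 HT were thus at the same level within counting error, and Stim1 Ctrl was above both. The fitted log2 fold change of -0.23 (DESeq2 standard error 0.34) had an adjusted p of 0.669 by edgeR. Its sign turned to 0.03 when counts were scaled by library size alone, but the median over all genes was then 0.25, and Igf1 stayed below it.

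Igf1r encodes the receptor and lies on chromosome 7 from 67952827 to 68233668. Counts of 1051, 542 and 1081 gave levels of 43.4, 27.5 and 42.0 CPM. The low library was Stim1 HT, and the 95% Poisson intervals of Stim1 cKO (40.8 to 46.1 CPM) and Stim1 Ctrl (39.5 to 44.6 CPM) overlapped. A log2 fold change of 0.32 (DESeq2 standard error 0.45) did not pass, with an edgeR adjusted p of 0.526. Against Stim1 HT alone it was 0.66, and against Stim1 Ctrl alone 0.05. The ratio of Igf1 counts to Igf1r counts was 6.58 (95% Wilson interval 6.17 to 7.02), 10.4 (9.57 to 11.4) and 9.12 (8.57 to 9.71). This ratio, which no scaling enters, was lowest in Stim1 cKO. The study's own list of called genes rests on counts of Igf1r and of Igf2 that differ markedly from those deposited under these symbols, and the files do not settle which apply, so the levels, fold changes and ratios of both genes are uncertain.

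**Figure D2:**
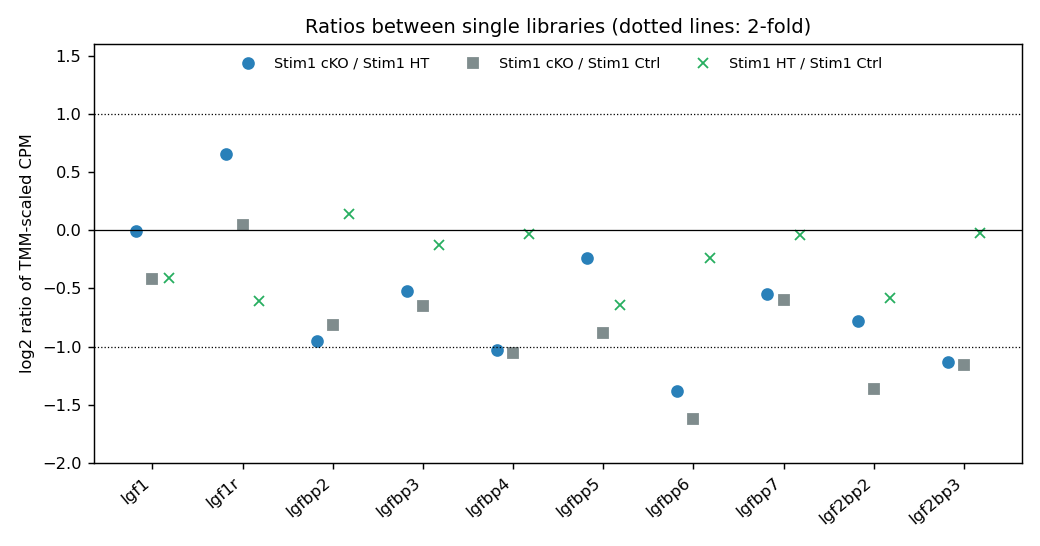
Log2 ratio of TMM-scaled CPM between single libraries for each of the 10 genes: Stim1 cKO to Stim1 HT (circles), Stim1 cKO to Stim1 Ctrl (squares) and Stim1 HT to Stim1 Ctrl (crosses). Both ratios of Stim1 cKO lie beyond the 2-fold line for Igfbp4, Igfbp6 and Igf2bp3, and the crosses of Igf1r, Igfbp5 and Igf2bp2 lie at -0.61, -0.64 and -0.58.

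Igfbp6, which encodes a binding protein with a marked preference for IGF2, had the lowest fold change of the 10. It lies on chromosome 15 from 102144362 to 102149511. Its counts were 536, 1140 and 1759, or 22.1, 57.9 and 68.4 CPM. Stim1 cKO stood apart, 2.61-fold below the nearer control, while the controls differed by a log2 ratio of -0.24. By edgeR the log2 fold change was -1.51 and the adjusted p 0.0371, which misses the threshold of 0.01. By DESeq2 it was -1.52 (standard error 0.38) and the adjusted p 0.00082. Over all the alternatives with a test the adjusted p ran from 0.00082 to 0.0475.

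Igfbp4 encodes a binding protein that mostly restrains IGF action until the protease PAPP-A cleaves it, and it lies on chromosome 11 from 99041244 to 99054392. Its counts were 10274, 17023 and 22755, or 424, 864 and 884 CPM. The controls were close to each other, with a log2 ratio of -0.03 between them, and Stim1 cKO was 2.04-fold below the nearer one. By edgeR the log2 fold change was -1.04 and the adjusted p 0.118. By DESeq2 it was -1.05 (standard error 0.29) and the adjusted p 0.0035 (0.0035 to 0.185 over the alternatives with a test). With scaling by library size alone its log2 fold change was -0.78, and Igfbp6 was then the one gene of the 10 still over 2-fold below both controls.

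Igfbp2 and Igfbp5 are neighbours on chromosome 1, separated by 5457 bases, with Igfbp2 from 72824503 to 72852474 on the plus strand and Igfbp5 from 72857932 to 72874884 on the minus strand. Igfbp2, a binding protein abundant in fetal tissue, had 1872, 2949 and 3505 counts, or 77.3, 149.7 and 136 CPM. Stim1 cKO lay 1.76-fold below the nearer control, Stim1 Ctrl. The adjusted p of its log2 fold change, -0.89 (DESeq2 standard error 0.32), was 0.105 by edgeR and 0.0339 by DESeq2. Igfbp5 encodes a binding protein of bone and connective tissue that also binds the matrix. Its counts were 29883, 28690 and 58587, or 1234, 1456 and 2277 CPM. Here Stim1 HT lay nearer to Stim1 cKO than to Stim1 Ctrl. Against both controls the log2 fold change was -0.60 (DESeq2 standard error 0.38, edgeR adjusted p 0.405), against Stim1 HT alone -0.24 and against Stim1 Ctrl alone -0.88.

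Igfbp3 encodes the main carrier of IGF in serum, and it lies on chromosome 11 from 7206086 to 7213923. Its counts were 4829, 5632 and 8042, or 199, 286 and 313 CPM. Igfbp7, on chromosome 5 from 77349240 to 77408041, had 3202, 3821 and 5151 counts, or 132, 194 and 200.2 CPM. In both genes the controls lay closer to each other than to Stim1 cKO, which was 1.43-fold below the nearer control for Igfbp3 and 1.47-fold for Igfbp7. Both had a log2 fold change of -0.58, with edgeR adjusted p-values of 0.246 for Igfbp3 and 0.227 for Igfbp7. Exon bases of Polr2b on the opposite strand cover 7.03% of those of Igfbp7, and whether reads were counted by strand is not given in the sources used here.

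Compared per kilobase of exon, Igfbp5 was the most abundant of the 10 transcripts in each library, at 206, 243 and 379 CPM per kb. Among 20676 genes with a known length it stood at percentiles 99.3, 99.2 and 99.7. In both controls the order below it was Igfbp4, Igfbp7, Igfbp3, Igfbp2, Igfbp6, Igf1, Igf2bp2, Igf2bp3 and Igf1r. In Stim1 cKO, Igfbp7 stood above Igfbp4, Igf1 above Igfbp6 and Igf1r above Igf2bp3. At the lower end Igf1r was at 2.59, 1.64 and 2.50 CPM per kb. With the longest annotated transcript in place of all exon bases, all 10 genes kept their place in Stim1 Ctrl, 8 in Stim1 HT, where Igf2bp3 moved above Igf2bp2, and 6 in Stim1 cKO. There Igfbp4 (111 CPM per kb) was then above Igfbp7 (110.2) and Igf2bp3 (4.08) above Igf1r (3.81), as in the controls, so that of the 3 differences in order the place of Igf1 above Igfbp6 was the one seen with both lengths. With 1 library per genotype, no spread is at hand to say which neighbours in the order differ.

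Of the summed level of the 6 IGF-binding protein transcripts per kb, Igfbp6 made up 3.71%, 6.32% and 6.27%. Igfbp4 made up 17.9%, 23.8% and 20.4%. Both shares were lowest in Stim1 cKO. The share of Igfbp7, at 20.4%, 19.5% and 16.9%, was highest there. That of Igfbp5 was 38.3%, 29.5% and 38.7%, with Stim1 cKO level with Stim1 Ctrl. The ratio of Igfbp6 counts to Igfbp7 counts was 0.167 (95% Wilson interval 0.153 to 0.183), 0.298 (0.279 to 0.319) and 0.341 (0.323 to 0.360). The ratio of Igfbp4 counts to Igf1 counts was 1.49 (1.44 to 1.53), 3.01 (2.92 to 3.10) and 2.31 (2.25 to 2.36). In both ratios the interval of Stim1 cKO lay below those of the controls, but the intervals of the controls did not overlap each other either. Such intervals cover counting error only, so their separation does not set Stim1 cKO apart.

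**Figure D3:**
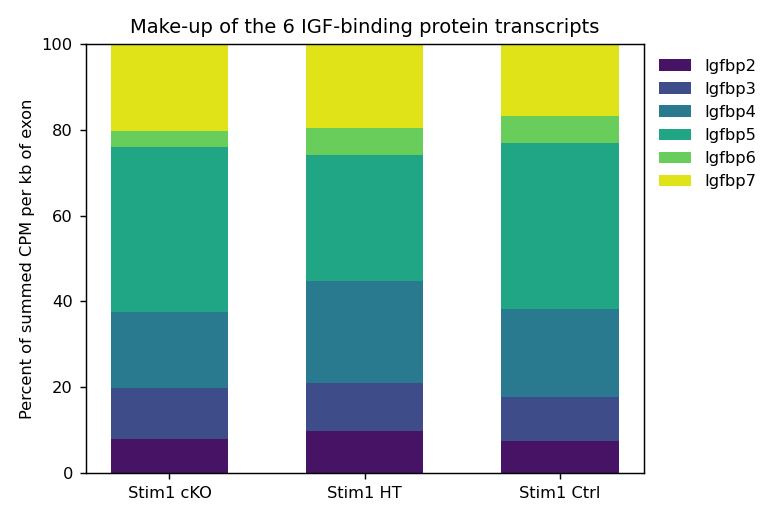
Share of each of the 6 Igfbp genes in their summed CPM per kb of exon, in percent (bars from 0 to 100), 1 bar per library. Igfbp5 is the widest band in each bar, and the band of Igfbp6 is 3.71% in Stim1 cKO against 6.32% and 6.27% in the controls.

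Igf2bp2 and Igf2bp3 were lower in Stim1 cKO than in both controls, while for Igf2bp1, the other gene of this family, Stim1 cKO lay between the controls. Igf2bp2, on chromosome 16 from 22059009 to 22163299, encodes the member that is also made in adult tissue. Its counts were 541, 756 and 1481, or 22.3, 38.4 and 57.6 CPM, with Stim1 HT between the others. The 95% Poisson intervals of the 3 libraries did not overlap, which also held for Igfbp2, Igfbp3, Igfbp5 and Igfbp6. These intervals cover counting error only. With a log2 fold change of -1.10 (DESeq2 standard error 0.44), the adjusted p was 0.101 by edgeR and 0.0634 by DESeq2.

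Igf2bp3, which encodes an oncofetal member of the family, lies on chromosome 6 from 49085223 to 49214957. Its counts were 429, 767 and 1018, or 17.7, 38.9 and 39.6 CPM. The controls had nearly the same level, with a log2 ratio of -0.02, and Stim1 cKO was 2.20-fold below the nearer one. With a log2 fold change of -1.15 (DESeq2 standard error 0.40), the adjusted p was 0.0511 by edgeR and 0.0247 by DESeq2. Exons of Malsu1 on the opposite strand cover 18.7% of the exon bases of Igf2bp3, so part of its counts is uncertain. Igf2bp1, the third member of the family, was at 7.35, 5.33 and 7.66 CPM, so that Stim1 cKO lay between the controls (log2 fold change 0.18, edgeR adjusted p 0.821). The ratio of Igf2bp3 counts to Igf2bp1 counts was 2.41 (95% Wilson interval 2.02 to 2.87), 7.30 (5.96 to 8.95) and 5.17 (4.44 to 6.02), lowest in Stim1 cKO. That of Igf2bp2 to Igf2bp3 was 1.26 (1.11 to 1.43), 0.986 (0.891 to 1.09) and 1.45 (1.34 to 1.58), with Stim1 cKO between the controls.

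Stim1 HT and Stim1 Ctrl were nearer to each other than either was to Stim1 cKO in 7 of the 10 genes, against 59.0% of all genes tested. The exceptions were Igf1, Igf1r and Igfbp5. None of the 10 differed over 2-fold between Stim1 HT and Stim1 Ctrl, whereas 13.5% of all genes did. The largest gaps were in Igfbp5, Igf1r and Igf2bp2, each with Stim1 HT lower. This pair of libraries has no replicate and was not tested.

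Among the 10 genes and the 66 measured genes of a list of the wider IGF pathway, the gene nearest in pattern to each was found by the Euclidean distance of its centred log2(CPM + 1) over the 3 libraries. Igfbp3 and Igfbp7 were nearest to each other, at 0.0591, followed for Igfbp7 by the protease gene Ctsd. Igf1r was nearest to Pdpk1, a kinase that activates AKT, at 0.00053, and then to Igf2bp1. Igf1 was nearest to Mtor, the kinase of the mTOR complexes, at 0.0441, and then to Sos1.

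For Igfbp2 the nearest were Ybx1, an RNA-binding protein gene, at 0.0299 and then Akt2. Igfbp4 was nearest to Akt2, at 0.0346, and then to Igf2bp3, and Igf2bp3 was nearest to Igfbp4, at 0.0524, and then to Akt2. These 3 genes thus stood close together in pattern. Igfbp5 was nearest to the transcription factor gene Foxo3, at 0.105, and then to Mtor. Igf2bp2 was nearest to Stat5b, at 0.0217, and then to Stat5a, both transcription factors of growth hormone signalling. Of the 10, Igfbp6 lay farthest from its nearest gene, with Akt1 at 0.237 and then Adam12 at 0.239. A pattern over 3 libraries is short, and these distances are descriptions.

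Of the 66 pathway genes tested, 0 were called by edgeR, which gave an unadjusted p under 0.05 to 18 lower and 9 higher genes, against 13.4% and 18.5% of all genes. DESeq2 called 8 as lower and 1 as higher, against 5.10% and 6.42% of all genes. The list had a median log2 fold change of -0.22. Its genes over 2-fold below both controls numbered 8, and those over 2-fold above both 5, against 8.23% and 19.1% of all genes. Igfbp1 and Ins2, also on the list, were not analysed here.

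The ligand Igf2 was at 792, 4548 and 8111 CPM (log2 fold change -3.00, edgeR adjusted p 0.0470). The ratio of Igf1 counts to Igf2 counts was highest in Stim1 cKO, at 0.361 against 0.0632 and 0.0472 in the controls. Igf2r, a receptor that clears IGF2 and has no kinase, was at 75.2, 205 and 339 CPM (log2 fold change -1.85, edgeR adjusted p 0.0605). H19, the noncoding RNA next to Igf2, was at 1468, 10165 and 15248 CPM (log2 fold change -3.11, edgeR adjusted p 0.0418). DESeq2 called all 3 of them. Irs1, a substrate of the receptor, was at 69.3, 119.9 and 164 CPM and was called by neither tool (log2 fold change -1.03, edgeR adjusted p 0.107). The insulin receptor gene Insr, with a log2 fold change of -0.08, lay between the controls.

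Downstream of the receptor, Grb10, an adaptor that restrains IGF1R signalling, was at 100.1, 590.1 and 985 CPM (log2 fold change -2.98, edgeR adjusted p 0.0332). Eif4ebp1, an inhibitor of translation that mTOR phosphorylates, was at 24.6, 75.4 and 67.6 CPM (log2 fold change -1.54, edgeR adjusted p 0.0347). Of the kinases, Akt1 was at 133, 298 and 318 CPM and Akt2 at 100.5, 208 and 206 CPM. DESeq2 called these 4 genes. In the RAS-ERK branch 0 of the 10 genes was called by either tool, and 0 was over 2-fold from both controls.

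Among the proteases that cut binding proteins and their inhibitors, values went both ways, with 4 of 8 genes below both controls and 4 above. Adam12 was at 19.9, 46.96 and 70.4 CPM, and was called by DESeq2 (adjusted p 0.0033, edgeR adjusted p 0.0546). Pappa, which encodes PAPP-A, the protease of IGFBP4, was at 18.9, 4.82 and 9.09 CPM and was called by neither tool (log2 fold change 1.44, edgeR adjusted p 0.122). Its relative Pappa2 was at 11.0, 13.1 and 33.1 CPM (log2 fold change -1.08, edgeR adjusted p 0.278). Socs2, a target of growth hormone signalling and the one gene of the list that DESeq2 called higher, was at 193, 90.2 and 56.0 CPM (log2 fold change 1.40, edgeR adjusted p 0.0699). The growth hormone receptor gene Ghr was at 49.7, 76.8 and 89.9 CPM (log2 fold change -0.75, edgeR adjusted p 0.134).

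Adam28, which encodes a metalloprotease, was over 2-fold above both controls at 39.9, 16.1 and 3.73 CPM, and neither tool called it. Lin28b, an RNA-binding protein gene whose product blocks let-7 maturation, was at 3.02, 0.406 and 0.389 CPM, from 73, 8 and 10 counts. The adjusted p of its log2 fold change, 2.91, was 0.0464 by edgeR and 0.142 by DESeq2. Insrr, an insulin receptor relative that was also over 2-fold above both, had 27, 9 and 8 counts.

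**Figure D4:**
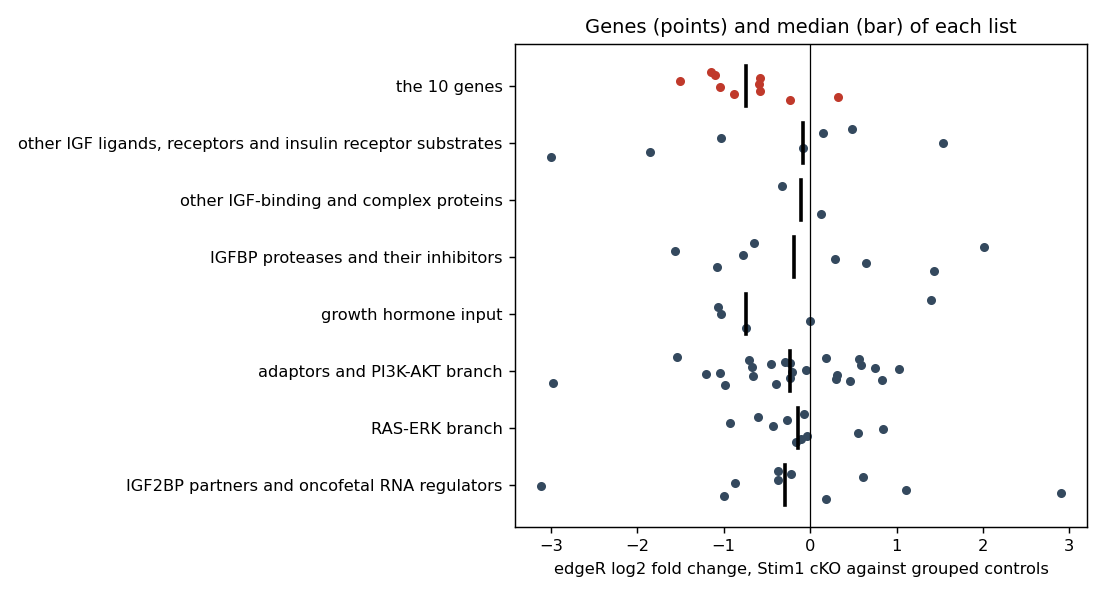
edgeR log2 fold change of Stim1 cKO against the grouped controls for the 10 genes and for each list of the wider IGF pathway, 1 point per gene, with a bar at the median. The median of the 10 genes is -0.74, and those of the lists are between -0.75 (growth hormone input) and -0.08 (other ligands, receptors and substrates).

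Fibroblasts, bone cells and vessels are among the sources of binding proteins, and markers of these cells were present in the enamel organ libraries. Which cells gave the Igfbp counts was not measured. The 10 markers of fibroblasts and dental mesenchyme summed to 35611, 49594 and 76729 CPM, with 9 of 10 below both controls in Stim1 cKO. The 8 endothelial markers summed to 293, 587 and 584 CPM, with 7 of 8 below both. The 8 macrophage markers summed to 144, 316 and 367 CPM and the 8 proliferation genes to 309, 642 and 804 CPM, with all 8 below both in each list. For pericytes and smooth muscle the sums were 843, 1040 and 1404 CPM, and for osteoblasts and odontoblasts 2739, 3036 and 3272 CPM, with 5 of 8 below both in each list. Over the 6 Igfbp genes the sums were 2090.2, 3008 and 3878 CPM. The part of these markers in the values of the 10 genes was not tested.

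All 8 skeletal muscle genes were over 2-fold below both controls in Stim1 cKO. The 10 ameloblast and enamel epithelium genes summed to 7086, 33125 and 24786 CPM, with 4 below both controls and 5 above. Of the retina and lens genes, Prph2 was, like Gnat1, far higher in Stim1 cKO, at 104, 0.102 and 0.0777 CPM, with counts in both controls under the floor of 3. The 5 listed genes of retinal Mueller glia and astroglia summed to 522, 295 and 302 CPM. The part of these tissues in the values of the 10 genes was not tested.

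**Figure D5:**
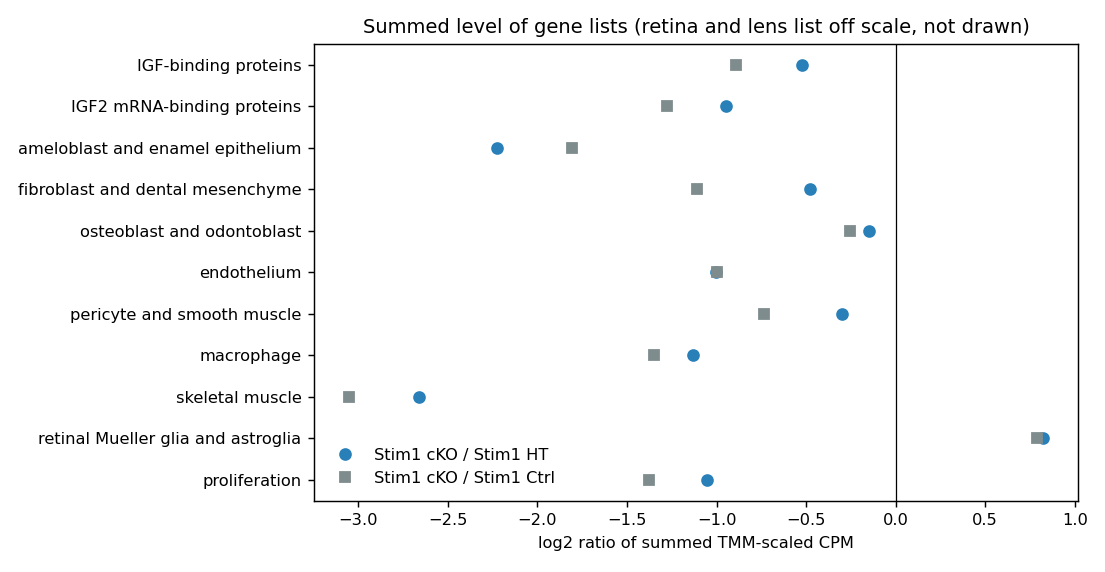
Log2 ratio of the summed TMM-scaled CPM of each gene list in Stim1 cKO to Stim1 HT (circles) and to Stim1 Ctrl (squares). Shown are the IGF-binding proteins, the IGF2 mRNA-binding proteins Igf2bp2 and Igf2bp3 (without Igf2bp1) and 9 lists of cell type and proliferation markers. The binding proteins are at -0.53 and -0.89. The fibroblast list is at -0.48 and -1.11, and the pericyte and smooth muscle list at -0.30 and -0.74. The skeletal muscle list is at -2.66 and -3.05. Each sum follows its most abundant genes, such as Igfbp5 and Col1a1.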

How the data were processed

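Per the study's methods, reads of low quality were discarded and the rest aligned to the mouse genome by STAR. The authors deposited un-normalized counts per gene symbol. Build, annotation, counting tool and strand setting are not given in the sources used here. The 20937 genes of the table all have 1 count or more in each library. The 10 genes and all lists were chosen with earlier results of these data known.

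All 3 libraries entered 1 fit of Stim1 cKO against both controls in edgeR 4.0.16 (R 4.3.3), with TMM scaling, the filterByExpr filter (18702 genes kept), the quasi-likelihood test and Benjamini-Hochberg adjustment. The fold and p thresholds were those of the study. DESeq2 1.42.0, on the same genes, was an alternative. The fits were tested on simulated data with the same numbers of libraries. In the simulation both controls had the same expected level and all genes shared a single dispersion. The real controls differ in genotype, so the recovery below may not hold for these data. Of 200 genes changed by a log2 of 2, edgeR called 32 and DESeq2 42. At a log2 of 3 edgeR called 157 and DESeq2 146. The lowest log2 fold change of the 10 genes was -1.51, smaller in size than any simulated. The 95% intervals (Wilson for ratios of counts, exact Poisson for levels) cover counting error only. Other steps used Python 3.11.15, numpy 2.4.6, pandas 2.3.3, scipy 1.17.1 and matplotlib 3.10.9. GENCODE M21 (GRCm38) held 20712 of the symbols and gave positions and exon lengths. RefSeq promoters (GRCm38.p6) matched all 10 genes. A few genes of the lists are not reported here. Pathway genes were named if either tool called them, if Stim1 cKO was over 2-fold above or below both controls, or if they were among the 2 nearest in pattern to 1 of the 10. Irs1, Insr, Pappa2 and Ghr, outside this rule, and the pairs of genes set in ratio were picked with their values known.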

Additional observations from a re-analysis of the deposited data

How the results depend on the processing

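Of the 10 genes, edgeR called 0 with TMM, RLE or library size scaling, with TMM set without the mitochondrial and enamel matrix genes, and with no filter on low counts. DESeq2 called 2, Igfbp4 and Igfbp6, and an adjusted p under 0.05 in edgeR called 1, Igfbp6. Of the pathway list DESeq2 called 9 genes and edgeR 0. Over all genes edgeR called 14, against 50 with RLE scaling, 6 with library size scaling, 907 with no filter, 1811 at an adjusted p under 0.05 and 1987 with DESeq2. Of the log2 fold changes of the 10 genes, that of Igf1 changed sign, to 0.033 with library size scaling, which moved the median of all genes from -0.01 to 0.25. The number of genes below both controls was 9, and 8 with RLE or library size scaling, where Igf1 lay between them. Leaving out one control leaves a ratio of 2 libraries with no test. With TMM scaling, the sign of each of the 10 was the same against Stim1 HT alone and against Stim1 Ctrl alone. That follows from 9 genes lying below both controls and 1 above both, and is no separate check. With the longest transcript as the length, the Stim1 cKO order of levels kept 6 of the 10 genes in place, that of Stim1 HT 8 and that of Stim1 Ctrl 10. No paired analysis was possible because each genotype has 1 library.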
